A study of Mus musculus with 8 samples.

Results

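The interferon response and class I presentation were followed through 41 genes, found by their symbols among the 47643 gene rows of the count table. Each symbol had 1 row. By role they are 5 transcription factors and regulators, 6 sensors of foreign nucleic acid, 15 antiviral effectors with the ISG15 system, 6 interferon-inducible GTPases, 8 class I presentation genes and the chemokine Cxcl10. The libraries are bulk RNA-seq of tissue labelled spinal cord from C57BL/6 mice, made to ask what Arf1, a small GTPase of Golgi membrane traffic, does in neurons. The 4 libraries labelled homozygous for the Arf1 deletion were compared with 4 labelled heterozygous, so no library without a deletion label was part of the comparison. Tamoxifen at 100 mg/kg was given to induce the deletion, and the mice were 2 to 10 months old. The labels give neither age nor sex of single animals, nor the Cre line or promoter that directs the deletion to a cell type.

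Interferons are secreted proteins that cells release when receptors such as RIG-I, MDA5 or cGAS meet foreign or misplaced nucleic acid. Type I interferon activates the factor ISGF3, which contains STAT2 and IRF9 and binds the interferon-stimulated response element (ISRE) in target promoters, while type II interferon acts through gamma-activated sites (GAS). In the central nervous system microglia, astrocytes and endothelial cells all respond, and class I molecules, which show peptides to CD8 T cells, are kept low in resting neurons.

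Many promoters of the members hold the letters that these factors bind. RefSeq promoter windows (build GRCm38.p6, 250 bases before to 50 after the transcription start) were matched for 31 of the 41 members. The letters GAAANNGAAA, the core of the ISRE, stood on either strand in the windows of 18 of these 31 members (58.1%), against 1079 of 27025 genes with a window (3.99%). The letters TTCNNNGAA, a GAS, stood in those of 8 members (25.8%), against 2582 genes (9.55%). Neither set of letters stood in the windows of H2-D1, H2-K1, Irf9, Psmb9, Tap1, Oasl2, Irf7, Ifi44, Trim25 and Xaf1. These are letter matches in short windows, not measured binding. All 5 GTPases with a window held an ISRE core, against 2 of 7 class I genes. Below, 6 windows are printed from 5′ to 3′ with every match in capitals. They were chosen among windows with a match. They belong to members on which the results turn or, for Isg15, to the member with the most ISRE cores.
Isg15 lies at chr4:156200769-156201068, minus strand, with 3 overlapping cores that begin 78, 72 and 66 bases before the start.
Isg15: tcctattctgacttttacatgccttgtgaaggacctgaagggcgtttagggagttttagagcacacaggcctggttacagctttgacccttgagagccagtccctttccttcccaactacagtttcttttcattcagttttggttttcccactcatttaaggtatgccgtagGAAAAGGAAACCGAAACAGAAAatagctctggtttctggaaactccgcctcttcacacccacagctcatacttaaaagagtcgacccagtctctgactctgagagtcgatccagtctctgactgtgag
The Stat2 window, chr10:128270248-128270547, plus strand, has 1 core, read on the other strand, 222 bases before the start.
Stat2: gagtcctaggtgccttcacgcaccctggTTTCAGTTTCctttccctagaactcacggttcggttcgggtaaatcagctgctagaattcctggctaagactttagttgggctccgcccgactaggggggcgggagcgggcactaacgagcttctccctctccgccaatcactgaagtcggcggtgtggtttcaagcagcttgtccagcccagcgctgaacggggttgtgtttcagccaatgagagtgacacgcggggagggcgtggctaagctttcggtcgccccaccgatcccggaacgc
Irf1 has a window at chr11:53769764-53770063, plus strand, with 1 GAS that begins 90 bases before the start.
Irf1: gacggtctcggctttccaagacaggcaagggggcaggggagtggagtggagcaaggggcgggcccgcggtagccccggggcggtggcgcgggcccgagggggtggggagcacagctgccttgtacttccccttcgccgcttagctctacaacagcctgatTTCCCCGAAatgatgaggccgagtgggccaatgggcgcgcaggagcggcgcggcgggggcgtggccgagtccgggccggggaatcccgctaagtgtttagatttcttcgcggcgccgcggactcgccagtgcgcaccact
For Gbp3, at chr3:142559794-142560093, plus strand, 2 overlapping cores on the other strand begin 45 and 39 bases before the start.
Gbp3: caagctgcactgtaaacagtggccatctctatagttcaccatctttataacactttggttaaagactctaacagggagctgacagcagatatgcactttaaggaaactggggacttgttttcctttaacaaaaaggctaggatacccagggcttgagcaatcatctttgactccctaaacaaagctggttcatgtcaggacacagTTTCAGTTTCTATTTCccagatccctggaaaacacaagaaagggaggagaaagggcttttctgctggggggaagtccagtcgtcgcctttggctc
The B2m window is chr2:122147437-122147736, plus strand, with 1 core 139 bases before the start.
B2m: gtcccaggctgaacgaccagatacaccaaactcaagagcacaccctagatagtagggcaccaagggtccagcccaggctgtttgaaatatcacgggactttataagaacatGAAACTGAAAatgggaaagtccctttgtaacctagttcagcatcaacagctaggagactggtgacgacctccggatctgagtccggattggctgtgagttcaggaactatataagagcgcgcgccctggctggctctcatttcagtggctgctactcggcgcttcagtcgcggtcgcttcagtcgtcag
Cxcl10 has its window at chr5:92348840-92349139, minus strand, with 1 core 213 bases before the start.
Cxcl10: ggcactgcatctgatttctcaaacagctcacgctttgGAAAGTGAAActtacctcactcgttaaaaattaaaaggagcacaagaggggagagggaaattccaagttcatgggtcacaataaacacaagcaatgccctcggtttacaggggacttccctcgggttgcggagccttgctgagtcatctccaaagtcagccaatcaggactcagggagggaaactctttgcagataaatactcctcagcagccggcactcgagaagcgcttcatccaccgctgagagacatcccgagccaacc

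Depth ran from 26321522 to 37879426 expected counts a library in the homozygous group and from 29857210 to 37803594 in the heterozygous group. Arf1 was at 22.5, 22.8 and 39.9 CPM (read counts scaled by library size with the TMM method) in homozygous replicates 2, 3 and 4, against 296 to 334 CPM in the heterozygous libraries. The library labelled homozygous replicate 1 had 307 CPM, which goes against its label, so fold changes are given over all 8 libraries and over the 7 libraries without it. Markers of the spinal cord segment, 10 Hox genes, summed to 33.2 to 78.2 CPM in homozygous and 53.2 to 92.4 CPM in heterozygous libraries. The forebrain marker Tbr1, a factor of cortical neurons, lay at 104 to 144 CPM in homozygous and 90 to 134 CPM in heterozygous libraries, or 49.7 TPM (a level per length) over the 8, which goes against a label of spinal cord alone. In bulk tissue, fewer cells of a type and less RNA per cell cannot be told apart. Each title carries its own number, and the p-values measure the spread between these libraries only.

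Class I genes led the levels and most of the interferon response was scarce. On the TPM scale B2m, the light chain of class I molecules, averaged 188 TPM over the 8 libraries. The heavy chains followed, H2-D1 at 57.2, H2-K1 at 34.2 and the nonclassical H2-T23 at 22.2 TPM. These 4 were the members above 10 TPM, while 27 lay from 1 to 10 TPM and 10 under 1 TPM. The median of all 41 members, including Mx1 and Zbp1, which were not tested, was 2.55 TPM, against 11.3 TPM for all tested genes. At the low end Mx1, an antiviral GTPase, ranged from 2 to 12 counts and Zbp1, a sensor of Z-form nucleic acid, from 2 to 17 counts. Both were below the filter on low counts, which left 39 members to test. RSEM divides reads among near copies, so the split among H2-K1, H2-D1 and H2-T23, or between Oas1a and its neighbours, Ifit3 and Ifit3b, and the Gbp genes, is less certain than their sums.

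**Figure D1:**
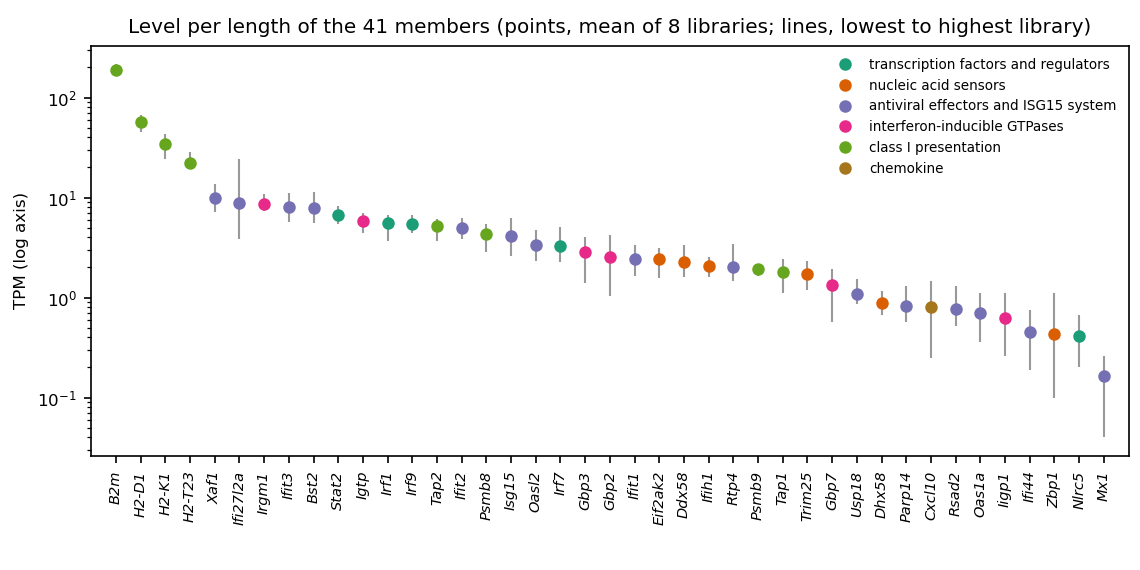
Level of each of the 41 members in TPM on a log axis, ordered by the mean of the 8 libraries; points are means, coloured by role, and lines run from the lowest to the highest library. B2m at 188 TPM stands above H2-D1 at 57.2 TPM, and Mx1 is lowest at 0.165 TPM.

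No member of the interferon response or of class I presentation passed the main test between the genotype labels. In edgeR's quasi-likelihood test over 8 libraries, 0 of the 39 tested members passed an adjusted p of 0.05, and of all 16511 tested genes 0 passed (0%). At an unadjusted p under 0.05 there were 4 members (10.3%), against 16.8% of all genes, and 0 members passed with DESeq2 (4.57% of all genes did) or limma-voom (0%). Over 7 libraries edgeR again called 0 of 39 members, beside 202 of 16560 genes (1.22%). Here 9 members (23.1%) had an unadjusted p under 0.05, against 19.5% of all genes, 0 passed with limma-voom (0.658% of all genes did) and 1 with DESeq2, Ifi27l2a (6.95%). The median log2 fold change of the members, homozygous over heterozygous, was 0.00 over 8 and 0.04 over 7 libraries, against 0.00 for all genes in both.

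The fold changes were nearly balanced in sign, 20 above and 19 below 0 over 8 libraries and 22 and 17 over 7. On the log2 TPM scale, which moved the median of all genes to -0.14 and -0.17, they split into 13 and 26 and into 12 and 27, and relative to those shifts the members' medians were 0.03 and 0.07. The precision was moderate. The 95% interval of the fold change lay within 2-fold either way for 32 of 39 members over 8 libraries and for 29 over 7. It lay within 1.5-fold for 17 and 14 members.

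**Figure D2:**
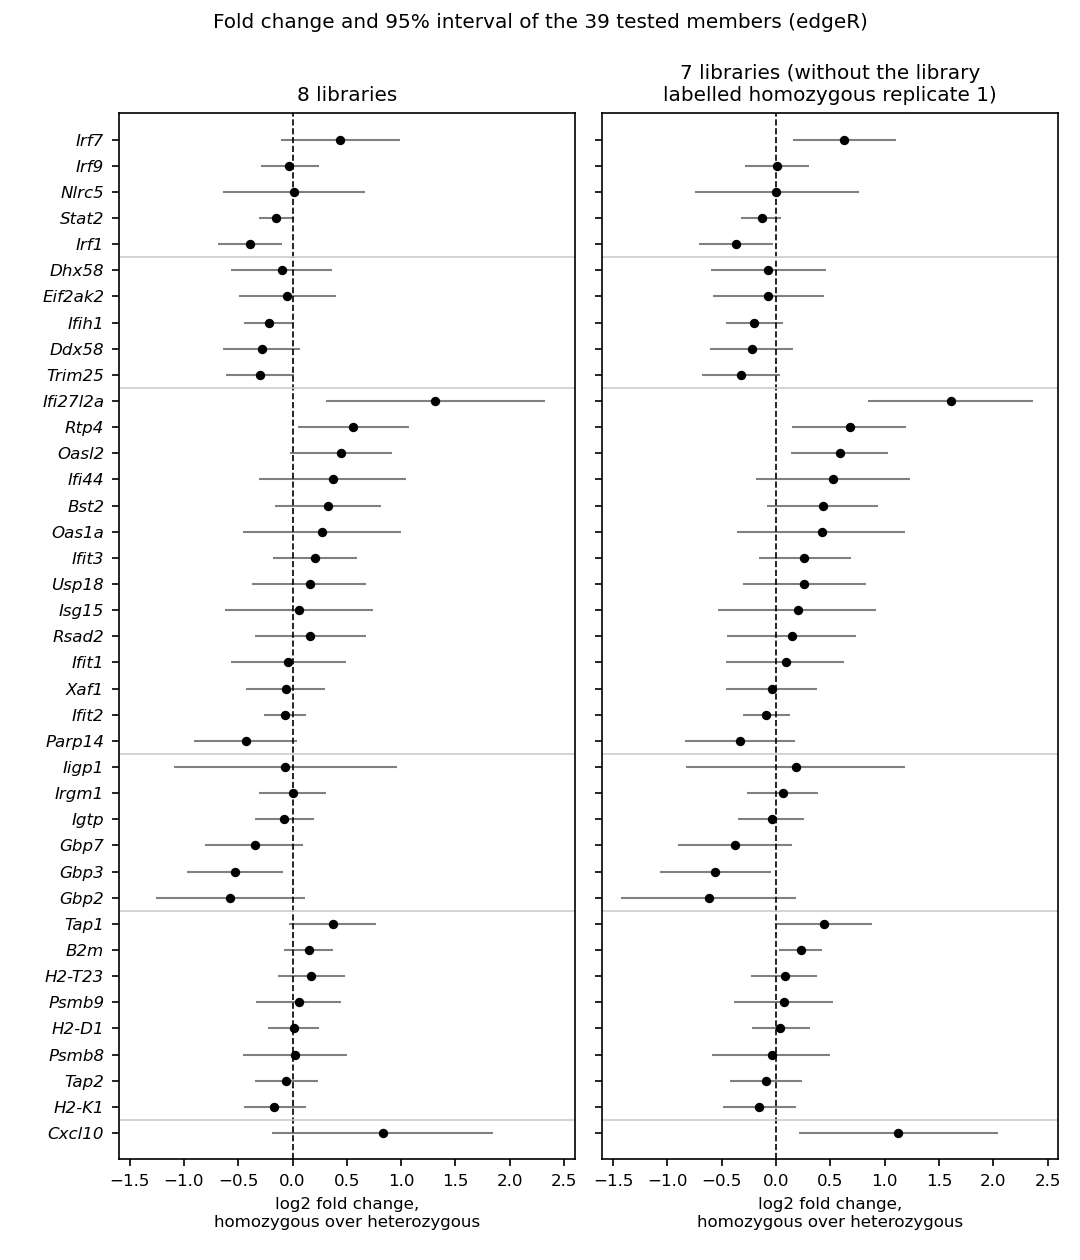
Log2 fold change of the 39 tested members, homozygous over heterozygous, with the 95% interval from edgeR, over 8 libraries (left) and 7 libraries (right); horizontal lines part the roles. The intervals of 4 members lie off 0 over 8 libraries and those of 9 over 7, with Ifi27l2a farthest at 1.31 and 1.61.

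The regulators split. Stat2, the ISGF3 subunit specific to type I interferon, had 16.0, 16.9, 16.5 and 16.9 CPM in the homozygous libraries (replicates 1 to 4 here and below), against 17.6, 20.5, 17.6 and 18.0 CPM in the heterozygous libraries. Every homozygous library lay below every heterozygous one, by a small margin. On the log2 scale the fold change was -0.15 (95% interval -0.31 to 0.01, edgeR adjusted p = 0.328) over 8 libraries and -0.13 (-0.32 to 0.05, adjusted p = 0.407) over 7. Irf1, the factor that carries much of the type II response, had 4.28, 4.73, 4.15 and 4.70 CPM in homozygous libraries, against 6.33, 6.05, 6.47 and 4.58 CPM in heterozygous libraries. Heterozygous replicate 4 fell among the homozygous values and the other 3 lay above them all. Its log2 fold change was -0.39 (-0.69 to -0.10, edgeR adjusted p = 0.200) over 8 and -0.37 (-0.71 to -0.03, adjusted p = 0.215) over 7 libraries.

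Irf7, the amplifier of type I interferon production, lay on the other side, most clearly over 7 libraries. It had 2.19, 3.42, 3.51 and 5.42 CPM in homozygous libraries, against 2.08, 2.93, 3.04 and 2.64 CPM in heterozygous libraries. Replicate 1 sat inside the heterozygous range and replicate 4 was far above the rest. Its log2 fold change was 0.44 (-0.11 to 0.99, edgeR adjusted p = 0.391) over 8 libraries and 0.63 (0.16 to 1.10, adjusted p = 0.148) over 7. Without homozygous replicate 4 these were 0.18 and 0.37. Irf9, the DNA-binding subunit of ISGF3, and Nlrc5, the transactivator of class I genes, were at -0.03 and 0.01 over 8 libraries and at 0.01 and 0.00 over 7.

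The nucleic acid sensors had negative fold changes in both edgeR fits, none past the threshold. Of the 6, 5 were tested and all 5 lay below 0 in both fits, with medians of -0.22 and -0.20. Eif2ak2 (the kinase PKR) turned to 0.004 with limma-voom over 8 libraries, and relative to the shift of the log2 TPM scale 4 of the 5 lay below. Ifih1, which encodes MDA5, had 4.91, 4.95, 5.44 and 5.35 CPM in homozygous libraries, against 5.48, 6.25, 6.38 and 5.94 CPM in heterozygous libraries. The groups did not overlap, with heterozygous replicate 1 just above the highest homozygous library. Its log2 fold change came to -0.22 (-0.45 to 0.01, edgeR adjusted p = 0.314) over 8 and -0.20 (-0.46 to 0.06, adjusted p = 0.381) over 7 libraries.

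Stat2 and Ifih1 were the members without overlap over 8 libraries, 2 of 39 (5.13%), both below, against 9.28% of all genes in either direction and 4.67% below. Over 7 libraries there were 6 such tested members (15.4%), against 18.5% of all genes, those 2 below (8.77% of all genes) and Irf7, Rtp4, Ifi27l2a and Cxcl10 above (9.76%). Trim25, the ubiquitin ligase that activates RIG-I, had 5.28, 4.73, 4.59 and 5.84 CPM in homozygous libraries, against 5.02, 6.05, 7.26 and 6.89 CPM in heterozygous libraries. Heterozygous replicate 1 lay inside the homozygous range. Its log2 fold change was -0.30 (-0.61 to 0.01, edgeR adjusted p = 0.310) over 8 and -0.32 (-0.68 to 0.04, adjusted p = 0.308) over 7 libraries. The kinase gene Eif2ak2 had 6.19, 6.29, 4.63 and 6.62 CPM in homozygous libraries, against 3.79, 6.52, 7.48 and 6.78 CPM in heterozygous libraries, and the extremes were both heterozygous. Ddx58, which encodes RIG-I, and Dhx58, which encodes LGP2, were at -0.28 and -0.10 over 8 and at -0.22 and -0.07 over 7 libraries.

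Among the antiviral effectors Ifi27l2a stood apart. It encodes a small mitochondrial membrane protein that interferon induces strongly. Its level was 0.757, 1.53, 2.22 and 4.11 CPM in homozygous libraries, against 0.615, 0.864, 1.10 and 0.864 CPM in heterozygous libraries, from 23 to 126 counts a library. Homozygous replicates 2, 3 and 4 lay above every heterozygous library, while replicate 1 lay within that group. Over 8 libraries the log2 fold change was 1.31 (0.31 to 2.32, edgeR adjusted p = 0.203). Over 7 libraries it was 1.61 (0.85 to 2.37), 3.05-fold, and just missed the threshold (edgeR adjusted p = 0.0546).

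The call for Ifi27l2a turned on the method. Over 7 libraries it passed with DESeq2 (adjusted p = 0.00184), with limma on log2 TPM (adjusted p = 0.0436) and with edgeR without the filter (adjusted p = 0.0188). The limma fit on log2 TPM called 2155 of 16560 genes. The adjusted p of Ifi27l2a over all alternatives ran from 0.00184 to 0.168. The authors' deposited table, which rests on 6 libraries and lists 185 genes up to a false discovery rate of 0.0936, gives it a log2 fold change of 1.41 and a rate of 0.0174. An own edgeR fit of those 6 libraries gave 1.48 (adjusted p = 0.0759). Homozygous replicate 4 carried part of the size: without it the log2 fold change was 0.78 over 8 libraries and 1.11 over 7.

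Oasl2, of the oligoadenylate synthetase family, had 3.32, 4.39, 5.40 and 5.51 CPM in homozygous libraries, against 2.54, 2.96, 3.59 and 4.48 CPM in heterozygous libraries. The groups overlapped through replicate 1 of the homozygous and replicate 4 of the heterozygous group. Oasl2 had a log2 fold change of 0.45 (-0.02 to 0.92, edgeR adjusted p = 0.312) over 8 and 0.59 (0.14 to 1.03, adjusted p = 0.153) over 7 libraries. Rtp4, an inhibitor of flavivirus replication, is given because its groups did not overlap over 7 libraries, which was seen in the data. It had 1.57, 1.94, 1.77 and 3.03 CPM in homozygous libraries, against 1.2, 1.30, 1.59 and 1.54 CPM in heterozygous libraries (log2 fold change 0.56 over 8 libraries, where the groups overlapped, edgeR adjusted p = 0.263, and 0.68 over 7, adjusted p = 0.160).

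The other effectors lay on both sides of 0, more of them above it than below. Xaf1, a pro-apoptotic target of interferon and the most abundant effector per length at 9.98 TPM, had 3.73, 3.13, 4.11 and 4.73 CPM in homozygous libraries, against 4.38, 3.46, 4.90 and 3.64 CPM in heterozygous libraries. The groups overlapped over nearly their whole range. The classical reporters of type I interferon, Isg15, a ubiquitin-like modifier, and Ifit1 and Ifit3, which bind foreign RNA, were at 0.06, -0.04 and 0.21 over 8 libraries and at 0.20, 0.09 and 0.26 over 7. Usp18, which removes ISG15, Rsad2, which makes an antiviral nucleotide, and Bst2, which tethers virions, were at 0.16, 0.16 and 0.33 over 8 libraries and at 0.26, 0.15 and 0.43 over 7. Oas1a and Ifi44 were at 0.27 and 0.37 over 8 libraries and at 0.42 and 0.52 over 7. Below 0 in both fits were Ifit2, at -0.07 and -0.09, and Parp14, an ADP-ribosyltransferase, at -0.43 and -0.33. In all, 10 of 14 tested effectors lay above 0 over 8 libraries with a median of 0.18, and 11 over 7 with a median of 0.26. Without homozygous replicate 4 the counts were 7 and 8 of 14 and the medians -0.01 and 0.03. On the log2 TPM scale the count was 9 of 14 over 8 and over 7 libraries, and 10 and 11 relative to the median of all genes there.

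**Figure D3:**
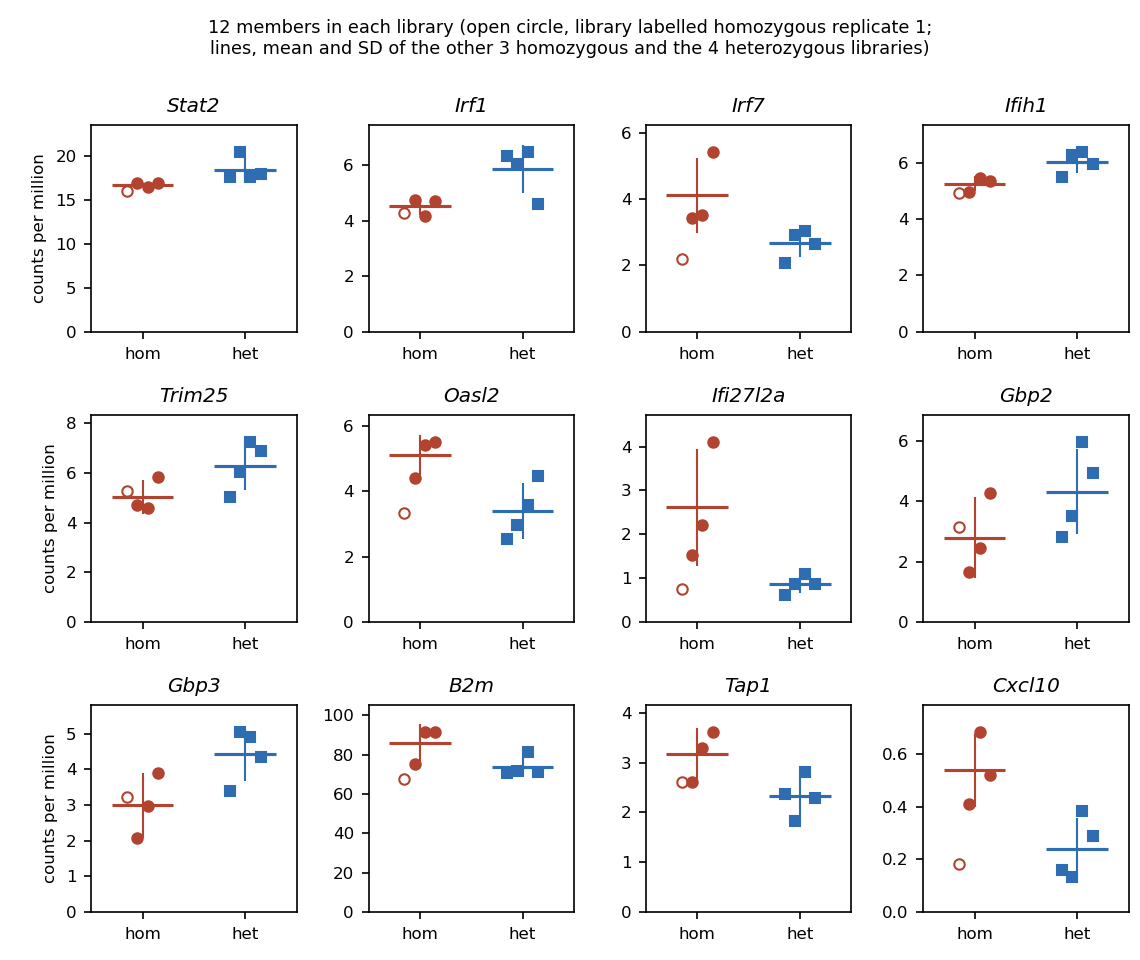
CPM of 12 members in each library, homozygous at the left (circles; the open circle is the library labelled homozygous replicate 1) and heterozygous at the right (squares), with the mean and SD of the other 3 homozygous and of the 4 heterozygous libraries; each vertical axis starts at 0. Stat2 and Ifih1 do not overlap between the groups, and the 3 filled circles of Irf7, Ifi27l2a and Cxcl10 lie above every square.

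The interferon-inducible GTPases, which coat and break the vacuoles of intracellular pathogens, did not pass the test in any of their 6 genes. Over 8 libraries 5 of the 6 had a negative log2 fold change and over 7 libraries 4, with a median of -0.21 in both. The negative ones were 3 of 6 over 7 libraries without heterozygous replicate 3 or without homozygous replicate 2, and all 6 on the log2 TPM scale over 7 libraries, or 4 relative to the median of all genes there. Gbp2 had 3.16, 1.64, 2.46 and 4.27 CPM in homozygous libraries, against 2.83, 3.52, 5.97 and 4.95 CPM in heterozygous libraries. The low values were homozygous replicates 2 and 3, and replicates 1 and 4 lay within the heterozygous range. Its log2 fold change was -0.58 (-1.26 to 0.11, edgeR adjusted p = 0.365) over 8 and -0.62 (-1.43 to 0.18, adjusted p = 0.364) over 7 libraries. Gbp3 had 3.21, 2.08, 2.98 and 3.91 CPM in homozygous libraries, against 3.39, 5.05, 4.90 and 4.35 CPM in heterozygous libraries. Homozygous replicate 4 and heterozygous replicate 1 made the overlap. The log2 fold change was -0.53 (-0.97 to -0.09, edgeR adjusted p = 0.229) over 8 and -0.56 (-1.07 to -0.05, adjusted p = 0.215) over 7 libraries. Gbp3 passed on the log2 TPM scale over 7 libraries (limma adjusted p = 0.0319). On that scale 2155 of 16560 genes passed and the median log2 fold change of all genes was -0.17.

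Gbp7, Gbp3 and Gbp2 lie in the same stretch of chromosome 3, from 142530342 to 142638008 (GRCm38). With Gbp4, Gbp5 and Gbp9 from the wider list, all 6 tested Gbp genes of the lists had a negative log2 fold change over 8 and over 7 libraries. That held under every alternative run, the log2 TPM scale and leaving out each library included. The family was not covered in full. Gbp6, whose symbol has repeated rows, was left out, Gbp8 fell below the filter on low counts, and Gbp genes on no list were not examined. The grouping of these 6 Gbp genes was made after their values were seen, the genes share reads and neighbours, and none passed edgeR's test in either fit. The authors' deposited table lists Gbp4 at -1.29 and Gbp5 at -1.09 with false discovery rates of 0.043 and 0.0018. In the own edgeR fit of those 6 libraries they were at -1.23 (adjusted p = 0.147) and -1.03 (adjusted p = 0.0565). The member GTPases outside the Gbp family differed less. Irgm1, which guides autophagy to vacuoles, had 7.76, 8.0, 9.47 and 10.2 CPM in homozygous libraries, against 9.94, 8.41, 10.1 and 6.96 CPM in heterozygous libraries, with a heterozygous library the lowest. Its log2 fold changes were 0.00 and 0.06, and those of Igtp, its partner, were -0.08 and -0.04. Iigp1, which attacks vacuoles directly, was at -0.07 (-1.09 to 0.96) and 0.18 (-0.83 to 1.19). In the wider list, however, Irgm2 was at -0.47 (edgeR adjusted p = 0.295) over 8 and -0.52 (adjusted p = 0.268) over 7 libraries. Tgtp2 was at -0.58 (edgeR adjusted p = 0.43) and -0.52 (adjusted p = 0.507). These were close in size to Gbp2 and Gbp3. Ifi47 and Tgtp1 were at -0.29 and -0.24 over 8 and at -0.24 and -0.07 over 7 libraries.

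Markers of nerve, vessels and meninges were also mostly lower on average in the homozygous libraries, and few passed edgeR's test. The 7 Schwann cell markers summed to 58.0 to 108 CPM in homozygous and 163 to 617 CPM in heterozygous libraries, and 6 of the 7 had a negative log2 fold change in both fits. The 8 endothelial markers summed to 145 to 240 CPM in homozygous and 203 to 285 CPM in heterozygous libraries, with all 8 negative in both fits. The 7 meningeal fibroblast markers summed to 129 to 178 CPM in homozygous and 137 to 268 CPM in heterozygous libraries, with 6 negative. Over 8 libraries 0 markers of these 3 lists passed edgeR's test. Over 7 libraries 1 Schwann cell and 1 meningeal marker passed, both lower, and 0 endothelial markers, against 1.22% of all genes. DESeq2 called 6 Schwann cell, 4 meningeal and 1 endothelial marker in each fit, against 4.57% and 6.95% of all genes. In each fit the groups did not overlap for 85.7%, 57.1% and 12.5% of these lists, against 9.28% and 18.5% of all genes. No marker of these lists was at 0 in all libraries, and their part in the Gbp values was not tested.

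Class I presentation did not pass the test in any gene. B2m had 67.7, 75.4, 91.5 and 91.3 CPM in homozygous libraries, against 70.5, 71.4, 81.3 and 71.1 CPM in heterozygous libraries. Homozygous replicates 3 and 4 lay above the whole heterozygous group and replicate 1 below it. The log2 fold change was 0.15 (-0.08 to 0.37, edgeR adjusted p = 0.474) over 8 and 0.23 (0.03 to 0.42, adjusted p = 0.197) over 7 libraries, and it turned to -0.043 and -0.004 on the log2 TPM scale. Tap1, a subunit of the peptide transporter, had 2.61, 2.61, 3.30 and 3.62 CPM in homozygous libraries, against 2.38, 1.83, 2.82 and 2.30 CPM in heterozygous libraries. Only heterozygous replicate 3 reached into the homozygous range. Its log2 fold change was 0.37 (-0.03 to 0.77, edgeR adjusted p = 0.322) over 8 and 0.44 (0.01 to 0.88, adjusted p = 0.250) over 7 libraries.

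The other 6 class I members had fold changes whose intervals all held 0. H2-K1 was at -0.17 (-0.45 to 0.12) over 8 libraries and at -0.16 (-0.49 to 0.18) over 7. H2-D1 was at 0.01 (-0.23 to 0.24) and 0.04 (-0.22 to 0.31), and H2-T23 at 0.17 (-0.13 to 0.48) and 0.08 (-0.23 to 0.38). Tap1 shares its stretch of chromosome 17, from 34181987 to 34216321, with Psmb9, Psmb8 and Tap2, the immunoproteasome and transporter genes. Those 3 were at 0.06, 0.02 and -0.06 over 8 libraries and at 0.07, -0.04 and -0.09 over 7.

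Cxcl10, which draws CXCR3-bearing T cells, was near the limit of detection. It had 0.183, 0.409, 0.685 and 0.522 CPM in homozygous libraries, against 0.160, 0.133, 0.384 and 0.288 CPM in heterozygous libraries, or 4 to 17 counts a library. Replicates 2, 3 and 4 of the homozygous group lay above every heterozygous library, though replicate 2 only just, at 0.409 against 0.384 CPM. The log2 fold change was 0.83 (-0.19 to 1.85, edgeR adjusted p = 0.381) over 8 and 1.12 (0.21 to 2.04, adjusted p = 0.178) over 7 libraries.

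Single libraries, 1 of each label, held most of the high values. Homozygous replicate 4 was the highest of the 8 libraries in 17 of 39 members (43.6%), against 12.4% of all genes, and heterozygous replicate 3 in 15 (38.5%), against 11.2%. Heterozygous replicate 1 was the lowest in 14 members (35.9%), against 13.4% of all genes, and homozygous replicate 2 in 9 (23.1%), against 13.6%. On the log2(CPM + 0.5) scale, the median member exceeded the mean of the heterozygous libraries by 0.21 in homozygous replicate 4 and by 0.20 in heterozygous replicate 3. The median member stood at -0.12 in homozygous replicate 2 and at -0.17 in heterozygous replicate 1, while the median of all genes was within 0.01 in each library. The mean holds each heterozygous library itself, which draws the heterozygous values toward 0 and leaves the homozygous ones as they are. The 2 high libraries differed by role. In homozygous replicate 4 the effectors stood highest, at a median of 0.52, and the sensors at -0.05, whereas in heterozygous replicate 3 the role medians lay between 0.17 and 0.27.

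**Figure D4:**
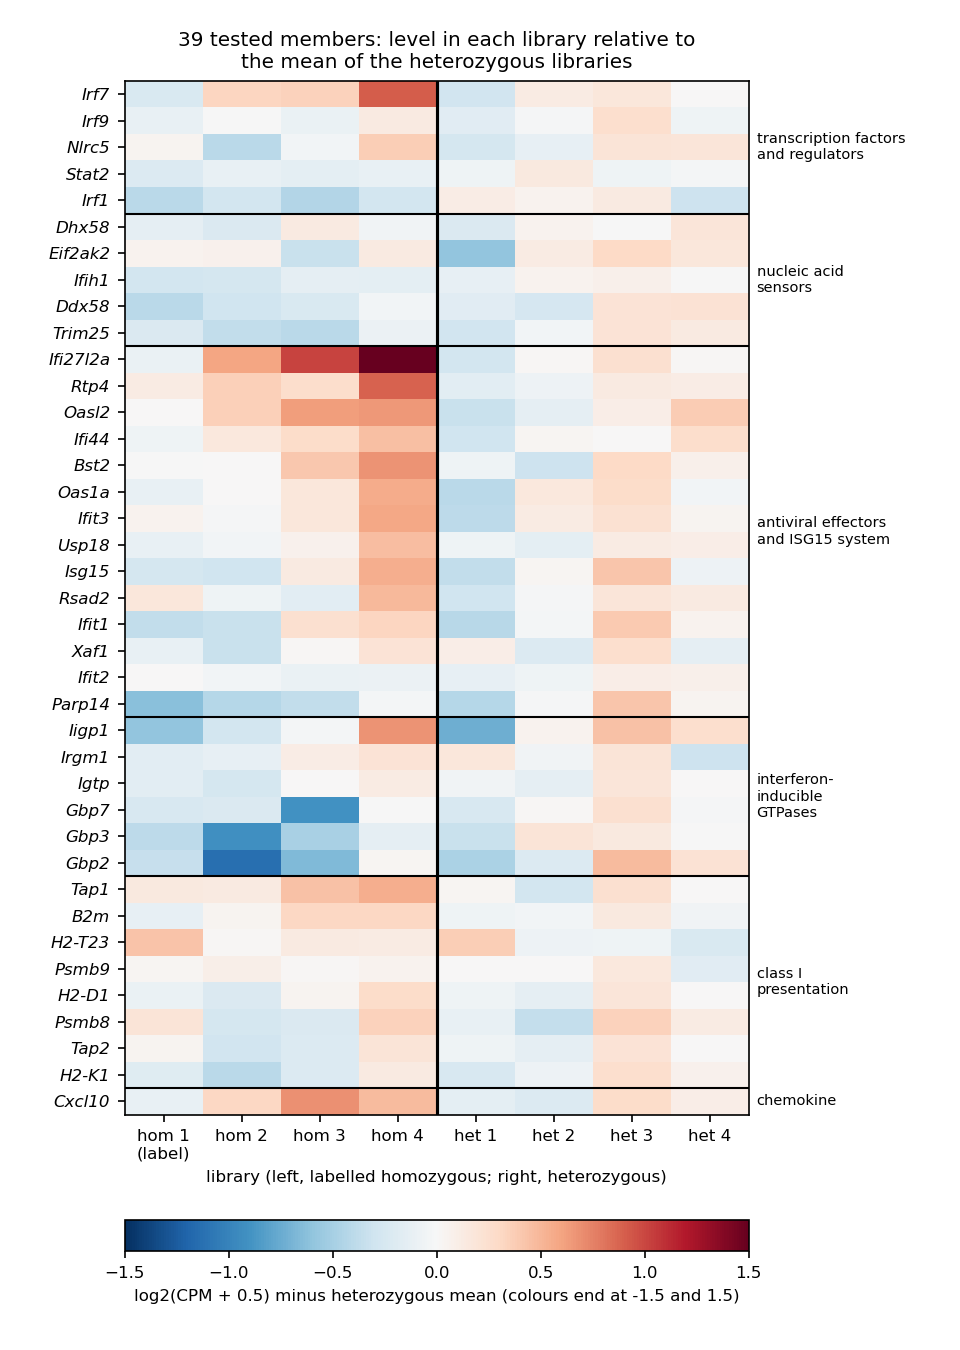
Level of the 39 tested members in each library, as log2(CPM + 0.5) minus the mean of the 4 heterozygous libraries, with the 4 libraries labelled homozygous at the left and rows grouped by role. The columns of homozygous replicate 4 and heterozygous replicate 3 are mostly red, and the Gbp rows are blue in homozygous replicates 2 and 3.

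**Figure D5:**
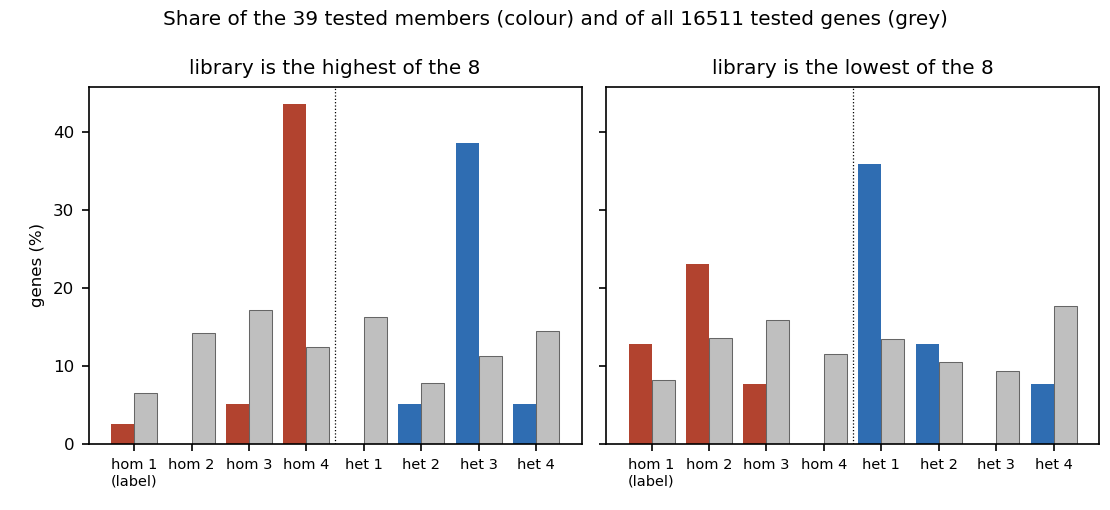
Share of the 39 tested members (coloured bars) and of all tested genes (grey bars) for which each library is the highest (left) or the lowest (right) of the 8, in percent. Homozygous replicate 4 is the highest in 43.6% and heterozygous replicate 3 in 38.5% of members.

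Other measures of these libraries stood apart with them. Homozygous replicate 4 was the library with an RNA integrity number of 8 where the other 7 had 9, and its 8 markers of monocytes and neutrophils summed to 37.8 CPM, against 5.14 to 13 CPM elsewhere. In homozygous replicate 3, 92.36% of trimmed reads mapped and 2.44% of bases were ribosomal, against 98.33% to 98.53% and 0.1% to 0.34% elsewhere. Heterozygous replicate 3 had the highest sums of Schwann cell markers, 617 CPM, and of border macrophage markers, 10 CPM against 4.95 to 8.22 CPM elsewhere. The 9 T and NK cell markers summed to 0.806 to 9.9 CPM in homozygous and 0.931 to 3.06 CPM in heterozygous libraries. Most of that was Cd4, at 8.28, 9.79, 0.725 and 0.848 CPM in homozygous libraries, against 2.14, 0.765, 0.822 and 2.15 CPM in heterozygous libraries (edgeR adjusted p = 0.378 over 8 libraries and 0.496 over 7). The other 8 summed to 0.0806 to 0.418 CPM in homozygous and 0.166 to 0.916 CPM in heterozygous libraries. Markers of disease-associated microglia summed to 1120, 1340, 1260 and 1450 CPM in homozygous libraries, against 978, 1010, 1210 and 1050 CPM in heterozygous libraries, most of it Apoe, at 988 to 1230 CPM in homozygous and 848 to 1060 CPM in heterozygous libraries. Of these markers 0 of 9 tested passed edgeR's test over 8 libraries, and 4 of 10 over 7, all higher (0.55% of all genes). The 4 were Clec7a, Cst7, Itgax and Cd68, with log2 fold changes of 2.92, 4.10, 2.48 and 0.83 over 7 libraries. In that fit 9 of the 10 lay above 0 and 1 below. Resting microglia markers summed to 323, 256, 266 and 331 CPM in homozygous libraries, against 302, 299, 361 and 315 CPM in heterozygous libraries. The highest sums were those of heterozygous replicate 3 and homozygous replicate 4, and the lowest that of homozygous replicate 2. Of these markers 0 of 8 passed edgeR's test over 8 libraries and 1, Tmem119, over 7, lower. The part of any of these in the members' values was not tested.

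The rest of the pathway was read from 108 genes in 5 lists, 90 of them tested in either fit. Of these, 0 passed edgeR's test over 8 libraries and 23 (25.6%) had an unadjusted p under 0.05, against 16.8% of all genes. Over 7 libraries 1 passed (1.22% of all genes did) and 18 (20%) had an unadjusted p under 0.05, against 19.5%. DESeq2 called 3 of the 90 over 8 libraries and 7 over 7, against 4.57% and 6.95% of all genes, and limma-voom called 0 in both (0% and 0.658%). The 10 interferon genes measured, among them Ifnb1, Ifng and 4 alpha interferons, had 0 counts in every library, where 3 counts would be 0.0792 to 0.114 CPM. RNA of these 10 genes was therefore not detectable at this depth in either group.

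The receptors and kinases were present. Of 12 tested genes 0 passed edgeR's test in either fit, with 3 and 2 at an unadjusted p under 0.05 (16.8% and 19.5% of all genes). Jak1, the kinase shared by both interferon receptors, had 183, 167, 174 and 160 CPM in homozygous libraries, against 219, 194, 185 and 189 CPM in heterozygous libraries, without overlap (log2 fold change -0.20 over 8 libraries, edgeR adjusted p = 0.203, and -0.24 over 7, adjusted p = 0.138). Ptpn6, a phosphatase that damps cytokine signalling, had 3.89, 3.57, 3.63 and 6.52 CPM in homozygous libraries, against 3.37, 2.66, 3.51 and 3.22 CPM in heterozygous libraries. Its groups did not overlap either, with homozygous replicate 4 far above the rest (0.47 over 8 libraries, edgeR adjusted p = 0.287, and 0.52 over 7, adjusted p = 0.241). Of all genes, 9.28% over 8 and 18.5% over 7 libraries had no overlap. Of the 17 adaptors, kinases and factors of sensing, 0 passed in either fit and 2 had an unadjusted p under 0.05 in each, against those same 16.8% and 19.5%. Mavs, the adaptor of RIG-I and MDA5, and Ticam1, the adaptor of TLR3, were at -0.24 (edgeR adjusted p = 0.271) and -0.29 (adjusted p = 0.279) over 8 libraries and at -0.31 (adjusted p = 0.162) and -0.39 (adjusted p = 0.135) over 7.

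Lgals3bp was the pathway gene that passed edgeR's test over 8 or 7 libraries, 1 of 39 tested among the other interferon-stimulated genes and over 7 libraries only. It encodes a secreted glycoprotein that binds galectin-3. It had 15.6, 21.8, 22.6 and 26.3 CPM in homozygous libraries, against 9.54, 11.4, 14.5 and 15.9 CPM in heterozygous libraries. Replicates 2, 3 and 4 lay above every heterozygous library and replicate 1 just below the highest of them. The log2 fold change was 0.74 (edgeR adjusted p = 0.138) over 8 libraries and 0.87 (SE 0.17, adjusted p = 0.0466) over 7, against 0.55% of all genes called higher. Most of that list lay the other way, with 25 of 39 log2 fold changes negative and 14 positive in each fit. Over 8 libraries 12 (30.8%) had an unadjusted edgeR p under 0.05, 9 lower and 3 higher, against 16.8% of all genes. Over 7 libraries there were 7 (17.9%), 5 lower and 2 higher, against 19.5%. In the same list Slfn5, a growth regulator that the authors' deposited table gives at -1.55 with a false discovery rate of 4.33e-06, was at -1.24 (edgeR adjusted p = 0.0974) over 8 and -1.32 (adjusted p = 0.0563) over 7 libraries, and it passed in the own edgeR fit of the authors' 6 libraries (-1.48, adjusted p = 0.027). Among the 22 other class I genes 0 passed edgeR's test, with 6 and 7 at an unadjusted p under 0.05, against 16.8% and 19.5% of all genes. Canx, a chaperone of heavy chains, was at -0.17 (edgeR adjusted p = 0.230) over 8 and -0.21 (adjusted p = 0.136) over 7 libraries, and the heavy chain gene H2-Q7 at -0.79 (adjusted p = 0.309) and -1.05 (adjusted p = 0.190).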

How the data were processed

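RNA from tissue labelled spinal cord was sequenced as 1 library for each of 8 mice. Reads were trimmed with cutadapt, aligned to mm10 with STAR, counted with RSEM and checked with Picard, per the submitters' processing notes, which hold no versions here. From this the authors deposited expected counts and TPM per gene, per the file headers, and a table of their own comparison with log2 fold changes, p-values and false discovery rates. Other values they deposited, such as RNA integrity numbers, come from their sequencing report. No column of samples outside the series was found (0).

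Expected counts were rounded and tested with edgeR 4.0.16 in R 4.3.3: TMM scaling, filterByExpr, robust quasi-likelihood fit, Benjamini-Hochberg adjustment over all tested genes, threshold 0.05. The 41 members, the gene lists and the fit of 7 libraries were chosen with earlier results of these data known. Replicates are numbered in deposition order, and the numbers pair nothing. Values per library are given for the 2 members of each role with the smallest p over 7 libraries, the member of each role with the highest mean TPM, and members without overlap over 8 libraries; from the other lists, for genes past the threshold or else up to 2 a list. Genes named outside this rule were chosen after their values were seen. They are Rtp4, Slfn5, the Gbp genes, Irgm2, Tgtp1, Tgtp2, Ifi47, the members given by fold change alone, the H2-T genes, H2-M3, H2-Q4, H2-Bl and Calr. Some genes of the marker and pathway lists are not reported here by name.

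Alternatives were DESeq2 1.42.0, limma-voom and limma 3.58.1 on log2(TPM + 1), median-of-ratios factors, library totals without TMM (added after seeing the data), no filter, at least 1 CPM in 4 libraries, a fit that was not robust, Xist as a covariate, other thresholds, the authors' 6 libraries, and each library left out. The edgeR procedure was also run on simulated counts. Those were drawn independently for each gene, so they do not cover shifts that many genes share in a library. Library totals leave members under 1 CPM with few counts; the floor of 3 counts covers counting error only. Positions are from GENCODE M21 and promoter sequences from RefSeq (GRCm38.p6).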

Additional observations from a re-analysis of the deposited data

Results flagged for a closer look

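In 30 groups of 4 libraries, those of the 15 members with values per library, 2 had a library whose gap to the nearest other exceeded Dixon's 95% critical value, and chance gives about 1 in 20 such groups. Stat2 was at 20.5 CPM in heterozygous replicate 2, against 17.6 to 18.0 CPM in the other 3 heterozygous libraries. B2m was at 81.3 CPM in heterozygous replicate 3, against 70.5 to 71.4 CPM in the other 3.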

How the results depend on the processing

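No paired analysis was possible because the replicate numbers only follow the order of deposition and the labels pair no animals. The count of members called over 8 libraries was 0 under every alternative run. Over 7 libraries it was 1 at an adjusted p of 0.1, 1 with DESeq2, 1 without the filter and 2 on the log2 TPM scale, and 0 under the others, leaving out each library included. The count of all genes called, 0 over 8 libraries, was 71 at an adjusted p of 0.1, 679 with DESeq2, 232 in the authors' 6 libraries, 1 on the log2 TPM scale, 63 without the filter and 0 to 202 with 1 library left out. Over 7 libraries, where it was 202, it was 834 at an adjusted p of 0.1, 42 when a log2 fold change of at least 1 in size was also asked, 1081 with DESeq2, 63 with the Xist covariate, 2155 on the log2 TPM scale, 109 with limma-voom, 444 without the filter and 6 to 402 with 1 library left out. The lowest, 6, was without homozygous replicate 3, whose share of mapped reads was lowest, and the highest, 402, without homozygous replicate 4. The median log2 fold change of the members ran from -0.10 to 0.12 over 8 and from -0.097 to 0.13 over 7 libraries with 1 left out. Signs turned for members near 0, and the cause was not tested. Over 8 libraries Irgm1 was -0.002 with DESeq2 and with median-of-ratios factors, -0.046 without TMM, -0.19 on the log2 TPM scale, -0.001 with limma-voom, -0.006 without the filter and -0.100 to 0.068 with 1 library left out. Over 7 it was -0.16 on the log2 TPM scale and -0.039 to 0.15 with 1 left out. Eif2ak2 was 0.008 with the Xist covariate, 0.004 with limma-voom and -0.22 to 0.062 with 1 left out over 8 libraries, and 0.011 with the covariate and -0.24 to 0.070 with 1 left out over 7. Xaf1 ran from -0.16 to 0.036 and from -0.19 to 0.11 with 1 left out, and B2m was -0.043 and -0.004 on the log2 TPM scale. No other direction turned under these alternatives among the 15 members chosen for values per library, which leave out Rtp4. Depth limits the members under 1 TPM most, where a library holds as few as 2 counts.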

Other observations

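A pair of libraries, 1 of each label, shared high values of the nonclassical class I genes H2-T23 and H2-T22. This was seen only after the values were examined. H2-T23, which encodes the mouse Qa-1 molecule recognised by NK cell receptors, had 22.5 CPM in homozygous replicate 1, as labelled, and 21.5 CPM in heterozygous replicate 1. It lay between 14.1 and 18.3 CPM in the other 6 libraries. Its neighbour H2-T22, a close relative, was at 26 and 25.6 CPM in the same 2 libraries, against 19.4 to 23.3 CPM in the others. The pattern did not extend to H2-T24, at 2.72 and 2.89 CPM there and up to 3.4 CPM elsewhere. It was also absent from the heavy chain genes H2-M3, H2-Q4 and H2-Bl. Nor was it particular to heavy chain genes, as Calr had 406 and 509 CPM in these 2 libraries, against 281 to 363 CPM elsewhere. RSEM divides reads between H2-T23 and H2-T22, and these 2 libraries are the ones that the authors' gene tables do not use.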
